A study of Mus musculus with 721 samples.

Results

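Wells titled double at E5.5 were compared with wells titled single from the same embryos, to ask whether a well that held a pair of cells differed in genes of mitosis, the cell cycle or adhesion, or only in depth. A double well is one in which the picked cell was seen under the microscope to be a doublet. Of the 721 wells of the series, 67 were E5.5 double wells and 195 were E5.5 single wells. In 6 embryos at least 3 wells of both types were found, and these embryos (2, 3, 4, 6, 7 and 9) gave 191 wells, of which 66 were double and the others single. Embryo 2 held 19 double and 17 single wells, embryo 3 held 7 and 16, embryo 4 held 8 and 9, embryo 6 held 4 and 27, embryo 7 held 4 and 41, and embryo 9 held 24 and 15. Embryo 5 (1 well of each type) and embryos 1 and 8 (single wells only) were left out of the comparison, as were 5 wells of embryo 7 titled VE (visceral endoderm).

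All wells came from wild-type C57Bl/6Babr mouse embryos, and the E5.5 embryos were taken shortly after implantation. At E5.5 the epiblast was separated from the extra-embryonic ectoderm and the visceral endoderm by hand, dissociated, and picked by hand into wells. Polyadenylated RNA was amplified by SMARTSEQ2 within the G&T-seq protocol, which reads RNA and DNA of the same cell. Double wells of E4.5 embryos of the same series were used as a second stage for the same contrast. At E4.5 the trophectoderm was removed by immunosurgery and the inner cell mass was dissociated without separating epiblast from endoderm. The embryo is the replicate throughout, since wells of 1 embryo share their source.

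Cells leave mitosis as sister pairs that stay joined by the midbody until the ESCRT machinery severs it, and epiblast cells also hold to their neighbours through cadherins, tight junctions and a laminin-rich basement membrane. A pair of cells that resists dissociation can therefore be sisters caught late in division or neighbours that adhere. The epiblast at this stage divides fast, and genes of DNA replication are abundant in it.

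Double wells had fewer counts and more genes than single wells in 6 of 6 embryos. Total counts ranged from 204534 to 2347590 (median 622730) in double wells and from 120148 to 2174811 (median 790252) in single wells. The median of the double wells was 377619 counts in embryo 2, 433244 in embryo 3, 455004 in embryo 4, 320942.5 in embryo 6, 868637.5 in embryo 7 and 1209315.5 in embryo 9. The medians of the single wells of these embryos were 464688, 597252, 548672, 692863, 1006276 and 1348557 counts in the same order. Embryo 6 stood out, with a double median at 0.463 of its single median, where the ratio was 0.725 to 0.897 in the other 5 embryos.

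The number of genes with at least 1 count went the other way. Double wells had a median of 7503, 7310, 7522.5, 8104.5, 6924 and 7782.5 genes in embryos 2, 3, 4, 6, 7 and 9, and single wells had 5963, 5363, 7005, 6600, 5938 and 6250. To remove depth, the counts of each well were thinned at random to 100000. The mean of the embryo medians was then 6450 ± 428 genes (SD, n = 6 embryos) in double wells and 5377 ± 460 in single wells. The difference per embryo was 1073 ± 496 genes and ranged from 371.5 (embryo 4) to 1722 (embryo 3). In a well, more cells and more RNA per cell cannot be told apart.

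**Figure D1:**
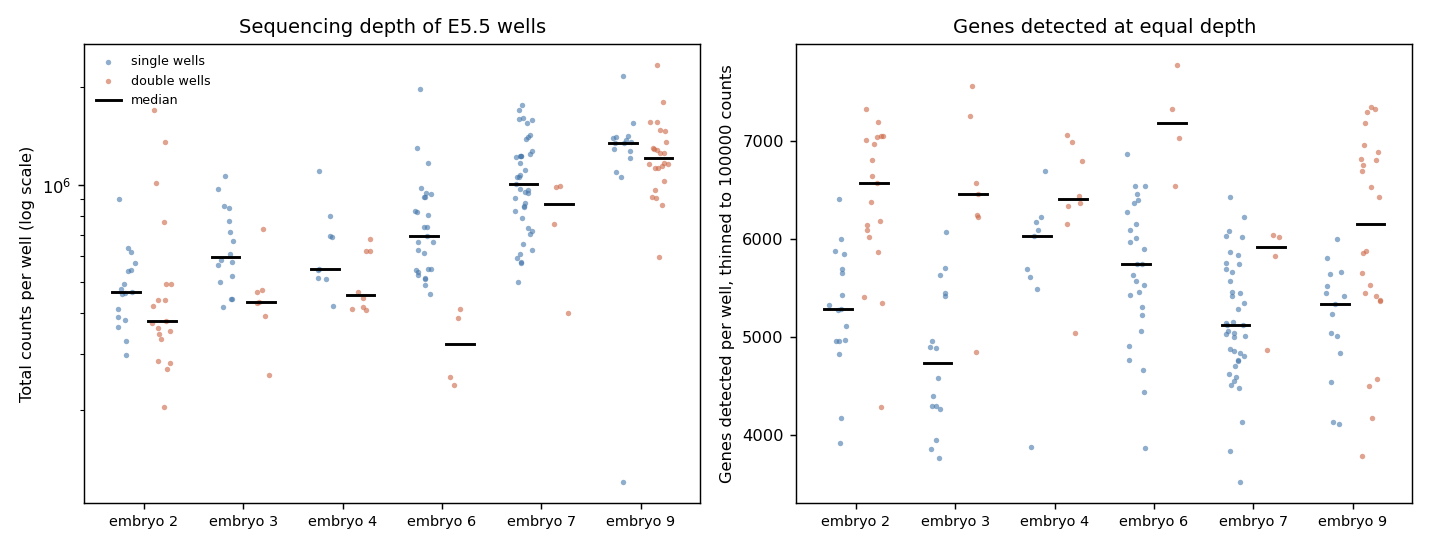
Total counts per well (left, log axis) and genes detected per well after thinning to 100000 counts (right, linear axis that does not start at 0) for single (blue) and double (orange) wells of the 6 embryos. Each point is 1 well and each bar a median; the double median lies below the single median on the left and above it on the right in each of the 6 embryos.

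For total counts, genes detected, and genes detected at equal depth, the exact two-sided paired permutation test over the 6 embryos gave p = 0.03125, the smallest value that 6 pairs allow. After Benjamini-Hochberg adjustment over the 8 well measures examined the exact test gave 0.0625, so these differences did not pass 0.05 although the direction was shared by 6 of 6 embryos. The wells of an embryo overlapped. In pairs of 1 double and 1 single well of an embryo, the double well had more genes at equal depth in 74.4% (embryo 7) to 99.1% (embryo 6) of pairs. The cell number in the titles, whose meaning the labels do not give, moves with the well type. In embryos 2, 3, 4, 6 and 9 each double well carries a higher cell number than every single well, so that this number and the well type cannot be told apart there. In embryo 7 the double wells were numbered 58, 70, 82 and 94. All but the last fell among the single wells, which were numbered 2 to 93. The numbers of these double wells are evenly spaced, so that cell number and well type may be tied in this embryo as well. Their genes at equal depth (6043, 6021, 5830 and 4874) had a median of 5925.5 against 5122 in the 41 single wells. Within plate label P7.P4.P5, which held embryos 3, 4 and 6, the mean difference was 1176 genes, and it was 815 for embryo 9 with label P1, 803.5 for embryo 7 and 1290 for embryo 2, so each label gave the same direction.

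The additional genes lay mostly at intermediate levels. Genes were placed in bins by their mean CPM (counts scaled to a common library total) in 69 single wells of embryos 1 and 8, which took no part in the comparison. Of the 3023 genes at 30 to 100 CPM, a thinned single well detected 63.5% ± 5.1 (SD, n = 6 embryos) and a thinned double well 77.8% ± 6.6, a mean difference of 14.3 percentage points. The difference was 12.2 points for the 2917 genes at 10 to 30 CPM, 5.39 points at 3 to 10 CPM and 1.74 points at 1 to 3 CPM. At 100 to 300 CPM it was 4.91 points, and above 300 CPM it was 0.329 points, since 99.5% of those genes were already found in a single well. In each bin the double value was higher in 6 of 6 embryos.

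The double wells were also set beside what 2 single wells would give together. For every 2 single wells of an embryo, each thinned to 50000 counts, the union of their genes was taken, so that the summed depth was again 100000. This union held 6453 ± 331 genes (SD, n = 6 embryos), while thinned double wells held a mean of 6355 ± 495 and thinned single wells 5306 ± 362. Double wells lay below the union in 4 of 6 embryos, with differences from -649 to 501 genes. At 30 to 100 CPM the union detected 78.9% ± 4.1 of the genes and double wells 77.8% ± 6.6. These values were chosen after the wells had been examined and carry no test.

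**Figure D2:**
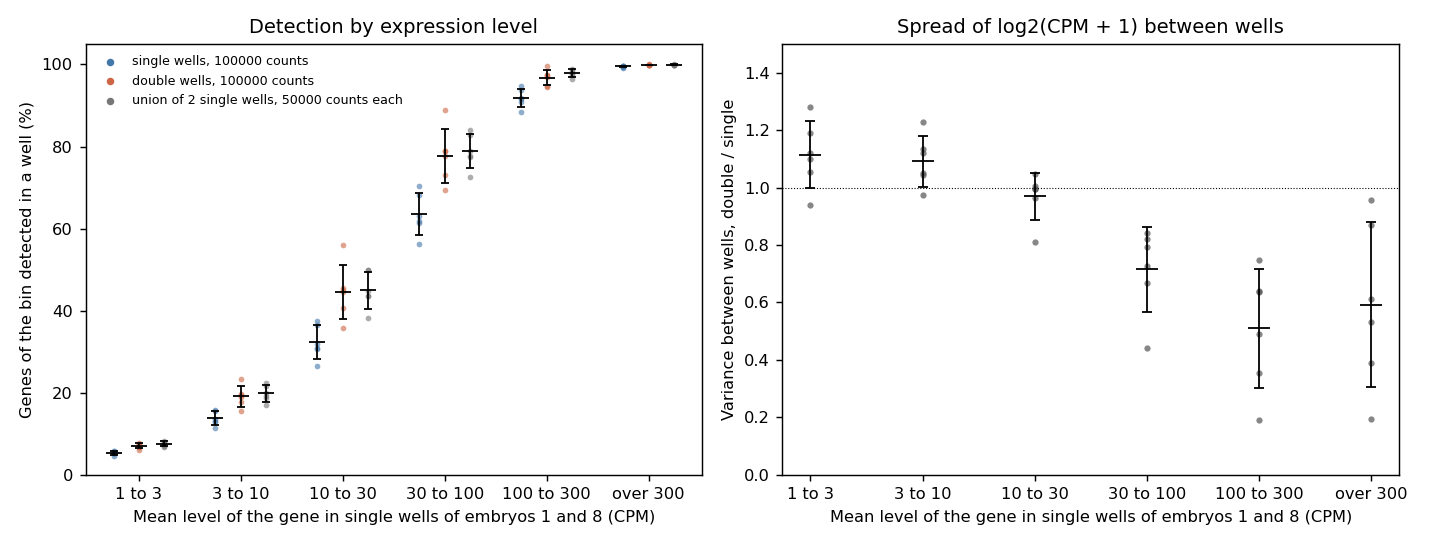
Share of genes detected in a well (left) and ratio of the variance between wells of log2(CPM + 1), double over single, on thinned counts (right), by the mean level of the gene in single wells of embryos 1 and 8. Points are embryos and bars are means with SD (n = 6). The means of double wells (orange) lie close to those of the union of 2 single wells (grey), with embryos on either side, and above single wells (blue). The variance ratio is below 1 in 6 of 6 embryos from 30 CPM upward.

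Across the 12314 genes with a mean of at least 1 CPM in those reference wells, 1289 (10.5%) were detected in a larger share of double than of single wells in 6 of 6 embryos at equal depth, and 16 (0.13%) in a smaller share. Genes are named in the following sentences because their values were in the same direction in 6 of 6 embryos, a choice made after their values were seen. In the list of integrins, matrix and focal adhesion, 8 of 26 genes (30.8%) were found more often in double wells in 6 of 6 embryos. Among them Itgb1, the shared beta chain of many integrins, was found in 64.1% ± 11.3 of single and 89.2% ± 8.8 of double wells (SD, n = 6). For Lamb1 and Lamc1, chains of laminin, the shares were 64.5% ± 9.6 and 88.6% ± 9.8, and 28.3% ± 12.2 and 52.6% ± 10.7. Perlecan (Hspg2), a proteoglycan of the basement membrane, was found in 44.1% ± 13.5 of single and 74.4% ± 2.9 of double wells.

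In the list of the actin cortex, 8 of 42 genes (19%) met this count, including the heavy chain of non-muscle myosin Myh9 (80.2% ± 5.3 and 96.05% ± 5.58). In the list of the G1/S transition and DNA replication it was 9 of 59 (15.3%), with the origin recognition subunit Orc1 at 67.8% ± 10.1 of single and 88.5% ± 14.02 of double wells. The mitotic list gave 2 of 57 (3.51%), Sgol2, a protector of centromeric cohesion, and the condensin subunit Ncapg. The cytokinesis list gave 4 of 34 (11.8%), the centrosome list 5 of 43 (11.6%) and the list of cell-cell junctions 3 of 47 (6.38%). No listed gene was found less often in double wells in 6 of 6 embryos. These shares stand beside the 10.5% of all genes, and not beside those of genes at the same level. The gain in detection varied with level, with a mean of 14.3 percentage points at 30 to 100 CPM and 0.329 above 300 CPM. In thinned single wells, genes of the integrin list were detected less often than those of the mitotic and G1/S lists. Whether a list gained more than other genes at its level was not tested. The lists were drawn up with earlier results of these wells known, and no test of a list was run.

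The summed amounts of each gene gave no called gene. Counts were summed over the wells of a type in an embryo, which gave sums of 1294802 to 43117934 counts, and tested with edgeR's quasi-likelihood test with embryo as a block. Of 11035 genes tested, 0 passed an adjusted p of 0.05 (0%), with or without a fold limit, and the smallest adjusted p was 0.995. At an unadjusted p under 0.05, 432 genes stood in all, of which 276 were lower in double wells (2.5% of genes tested) and the rest higher (1.41%). The median log2 fold change over all genes was -0.05. DESeq2 called 2 genes (0.0115% of 17328), Col1a2 and Cyb5.

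The mitotic list held 57 genes, cyclin B, its kinase Cdk1, the spindle checkpoint and the kinetochore among them. Its median log2 fold change was -0.10, with 17 genes above and 40 below 0, and 0 genes were called. Ccnb1, the cyclin that drives entry into mitosis, had 466.5, 454, 382, 470, 533 and 293 CPM in single sums of embryos 2, 3, 4, 6, 7 and 9, and 362, 399, 429, 535, 358 and 278 CPM in double sums. The groups overlapped, and the log2 fold change was -0.14 (SE 0.12). The levels of Cdc20, which activates the anaphase-promoting complex, were 457 ± 140 CPM in single and 441 ± 121.4 in double sums (SD, n = 6). For Top2a, which untangles DNA before anaphase, the log2 fold change was 0.06 (SE 0.13, 95% interval -0.23 to 0.35). The 95% interval lay within 1 either way on the log2 scale for 40 of the 57 genes (70.2%), against 36.5% of all genes tested. The list was also more abundant, with a median of 80.9 CPM against 24.1 CPM over all genes tested. Its median SE was 0.24 against 0.48, so the shares of narrow intervals are not those of genes at the same level. Mad2l1, a checkpoint protein, and the kinetochore subunit Spc25 had an unadjusted p under 0.05. Their log2 fold changes were -0.32 (SE 0.10) and -0.67 (SE 0.27), and the adjusted p of edgeR was 0.995 for each.

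In the cytokinesis list the median was 0.08 over 34 genes, with 0 called. Chmp6, an ESCRT-III subunit that acts at membrane scission, was among the 10 genes of smallest p with the same direction in 6 of 6 embryos. Its sums held 25.5, 38.6, 23.6, 34.8, 84.5 and 38.5 CPM in single and 79.5, 55.96, 79.9, 76.8, 96.7 and 75.3 CPM in double wells of embryos 2, 3, 4, 6, 7 and 9. The double sum was the higher in each embryo, although the single sum of embryo 7 overlapped the double sums. The log2 fold change was 1.04 (SE 0.26) and the adjusted p 0.995 (edgeR). Of the most abundant members, Sept2 and Sept7, septins of the cleavage furrow, had log2 fold changes of 0.02 (SE 0.15) and -0.35 (SE 0.21), and the ESCRT-III subunit Chmp2a -0.07 (SE 0.24).

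In the centrosome list the median was -0.18 over 43 genes, with 13 above and 30 below 0 and 0 at an unadjusted p under 0.05. Cetn3, a centrin of the centriole, had a log2 fold change of -0.18 (SE 0.19), and the augmin subunits Haus1 and Haus2 -0.01 (SE 0.17) and -0.29 (SE 0.18). Only 9 of the 43 intervals (20.9%) lay within 1 either way, so that for most of the list a difference of 1 on the log2 scale lay within the error.

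Of the 14 lists, the G1/S list had the largest share of narrow intervals, with 52 of 59 intervals (88.1%) within 1 either way. Its median was 0.09, with 36 genes above and 23 below 0, and 0 genes were called. At an unadjusted p under 0.05, 5 genes were higher (Mcm10, Wdhd1, Rpa2, Exo1 and Orc1) and Slbp, which binds histone mRNA, was lower. Of all genes tested, 1.41% were higher and 2.5% lower at this limit. Mcm10, which helps to start the replication fork, had a log2 fold change of 0.53 (SE 0.17). Among the abundant members, Mcm2 of the replicative helicase had 446 ± 140 CPM in single and 528 ± 90 in double sums, Uhrf1, which maintains DNA methylation after replication, 404 ± 95 and 483 ± 88, and Hells, a chromatin remodeller, 574 ± 139.2 and 541 ± 85 (SD, n = 6). The adjusted p of each was 0.995 (edgeR). For the 14 tested G1 cyclins, kinases and inhibitors the median was -0.05. Cdk4, the partner of the D cyclins, was almost level at 1797 ± 237 and 1789 ± 194 CPM.

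The adhesion genes gave a like picture. For 43 genes of cell-cell junctions the median log2 fold change was -0.02 (21 above and 22 below 0), for 23 genes of integrins and matrix it was 0.13, and for 41 genes of the actin cortex it was -0.04. Epcam, an epithelial adhesion molecule, had 370 ± 43 CPM in single and 426 ± 75 in double sums, with the double sum higher in 5 of 6 embryos. Ctnnb1, which links cadherins to actin, had 229 ± 34 and 263 ± 56 CPM, and the tight junction protein Cldn6 354 ± 100 and 363 ± 81 CPM. The laminin chain Lama5 stood at 127.9 ± 52.7 and 158.3 ± 62.6 CPM, with a log2 fold change of 0.34 (SE 0.16). Actb differed by -0.04 (SE 0.08) and Cfl1, which severs actin filaments, by 0.06 (SE 0.09). The actin-binding protein Pfn1 had -0.20 (SE 0.08), Arpc3 of the Arp2/3 complex -0.24 (SE 0.11) and the nectin Pvrl2 -0.43 (SE 0.15), each with an unadjusted p under 0.05 and an adjusted p of 0.995 (edgeR).

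**Figure D3:**
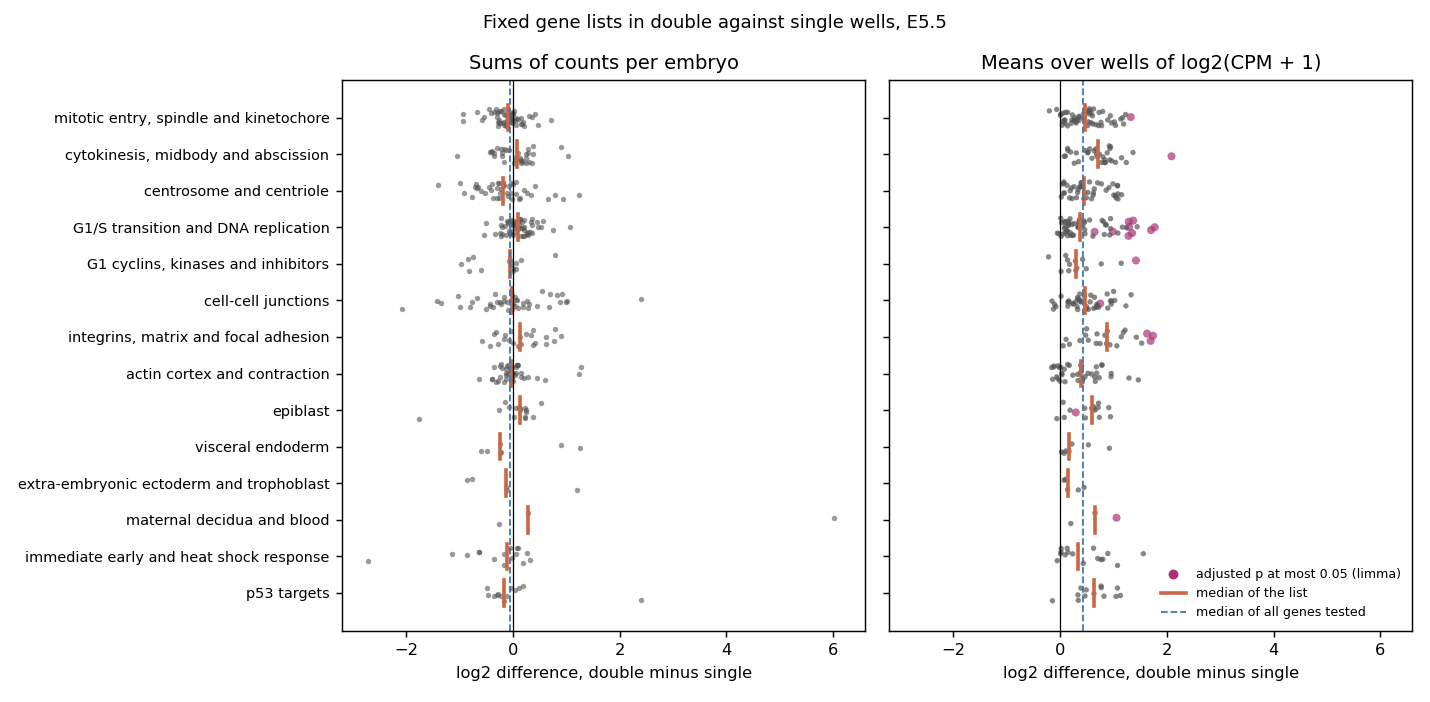
Log2 difference between double and single wells for each tested gene of the 14 fixed lists, from sums of counts per embryo (left, edgeR) and from means over wells of log2(CPM + 1) (right, limma). Orange bars are list medians, dashed lines the median of all genes tested (-0.05 left, 0.42 right), and purple points genes past an adjusted p of 0.05, of which there are 0 on the left.

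The genes with the smallest p in the sums, among those with the same direction in 6 of 6 embryos, were lower in double wells for 7 of 10. Cyb5, cytochrome b5, had 420, 668, 354, 444, 392 and 396 CPM in single and 265, 361, 243, 252, 291 and 362 CPM in double sums of embryos 2, 3, 4, 6, 7 and 9. Its log2 fold change was -0.58 (SE 0.12), with an adjusted p of 0.995 by edgeR and 0.0493 by DESeq2. Psma3, a subunit of the 20S proteasome, had 678 ± 119.1 and 534 ± 92 CPM, and the disulfide isomerase Pdia3 of the endoplasmic reticulum 660 ± 143.6 and 509 ± 97. Hbxip, Golt1b, Timm17a of the mitochondrial import machinery, and Dcaf11 had log2 fold changes of -0.52 (SE 0.12), -0.71 (SE 0.17), -0.48 (SE 0.12) and -1.21 (SE 0.30). In means over wells of log2(CPM + 1), Dcaf11 had the other sign (0.30, adjusted p 0.682, limma) and Golt1b -0.13 (adjusted p 0.802, limma). Mfsd1, Chmp6 and Col1a2 were higher, Mfsd1 by 0.995 (SE 0.25). Of all genes tested, 140 (1.27%) were higher and 265 (2.4%) lower in double sums of 6 of 6 embryos.

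Depdc1a, Lrrcc1 and Cnn2 had been proposed as markers of the double wells. Depdc1a, a gene of the mitotic list, starts at position 159495433 of chromosome 3 (GRCm38). It was sparse, with a mean of 3.14 ± 2.85 CPM in single and 2.64 ± 2.38 CPM in double sums (SD, n = 6), and its log2 fold change was 0.20 (SE 1.63, adjusted p 0.995, edgeR). Lrrcc1, which encodes a centriole protein and starts at position 14533788 of chromosome 3, had 27.4, 17.8, 9.25, 22.1, 27.6 and 13.5 CPM in single sums of embryos 2, 3, 4, 6, 7 and 9. Its double sums held 15.8, 7.31, 26.3, 0, 27.3 and 293 CPM, so that embryo 9 was far above the rest. Cnn2, a calponin that binds actin, starts at position 79988584 of chromosome 10. It had 0.237, 18.4, 1.81, 5.00, 6.71 and 22.96 CPM in single and 14.5, 0.318, 6.20, 1.49, 24.5 and 132.6 CPM in double sums, again with embryo 9 highest.

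For Lrrcc1 and Cnn2 the high sums of embryo 9 came from the same well. That double well, the deepest of all with 2347590 counts and 9694 genes, had 7831 counts of Lrrcc1 (3336 CPM) and 3574 of Cnn2 (1522 CPM). The next highest of the 191 wells had 232 CPM of Lrrcc1 and 218 CPM of Cnn2, both in single wells. Without this well the double sum of embryo 9 held 26.8 CPM of Lrrcc1 and 11.2 CPM of Cnn2. The log2 fold changes, which were -0.03 (SE 0.89) for Lrrcc1 and 1.28 (SE 1.203) for Cnn2 with all wells, were then -0.47 and 0.28, and neither gene had passed the test before (adjusted p 0.998 and 0.995, edgeR). At full depth Depdc1a had counts in 21 of 66 double wells (31.8%) and in 17.6% of single wells, Lrrcc1 in 53.03% and 35.2%, and Cnn2 in 33.3% and 16%. These shares pool wells over embryos without the pairing, and embryo 9 gave 24 double and 15 single wells, embryo 7 only 4 and 41. For none of the 3 genes was the direction the same in every embryo. No double well had Lrrcc1 in embryo 6 or Depdc1a in embryo 7, where the single sums held 22.1 and 2.45 CPM. Depdc1a stayed rare at equal depth, where it was found in 8.0% ± 8.3 of single and 15.2% ± 9.5 of double wells.

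**Figure D4:**
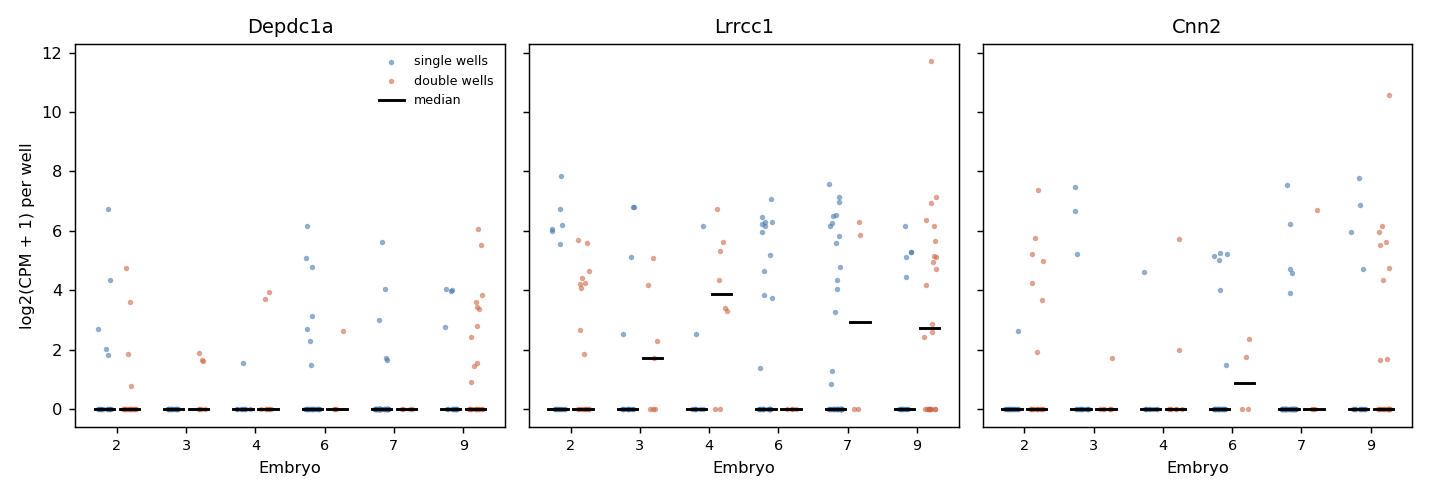
log2(CPM + 1) of Depdc1a, Lrrcc1 and Cnn2 in each single (blue) and double (orange) well by embryo, with medians as bars. Most wells lie at 0, and 1 double well of embryo 9 has the highest value of both Lrrcc1 (3336 CPM) and Cnn2 (1522 CPM).

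A second fit used another summary of the wells. The mean over wells of log2(CPM + 1) was taken for each embryo and type, so that each well had the same weight, and tested with limma, with embryo as a block. This changes the weights, the scale and the test together, and which of them moved the count was not tested. The median difference over all 11035 genes was then 0.42 on the log2(CPM + 1) scale, and 283 genes (2.56%) rose in double wells while 0 fell. With wells thinned to 100000 counts, a fit added after these values were seen, the median was 0.37 and 49 genes rose (0.444%), of which 47 were among the 283. A mean of logs counts a well without the gene as 0, so this scale moves with detection as well as with level. The share of double wells with the gene and its mean log level therefore cannot be told apart on it.

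In the full-count fit, 9 of 59 genes of the G1/S list rose (15.3%), namely Mcm10, Wdhd1, Exo1, Pold1, Uhrf1, Orc1, Cdc6, Chaf1a and Pole. Their differences ran from 0.65 (Uhrf1) to 1.77 (Mcm10), while the list median of 0.37 was below the 0.42 of all genes. Lamb1, Lamc1 and Itgb5 rose in the integrin and matrix list (3 of 23, 13%), by 1.63, 1.74 and 1.70, and this list had the highest median of the 14, 0.87. In the mitotic list 1 of 57 genes (1.75%) rose, the checkpoint kinase Bub1b, by 1.32. Cytokinesis gave Chmp6 (2.09), cell-cell junctions Ctnnb1 (0.75), G1 regulators Cdk2 (1.42), epiblast Dnmt3b (0.29) and the decidual list Col1a2. No gene of the centrosome or actin list rose. These shares were not set beside those of genes at the same level. On thinned counts Mcm10 and Dnmt3b were the listed genes that remained. In the sums the same G1/S genes had log2 fold changes of 0.19 (Pole) to 0.75 (Wdhd1), and none was called.

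Dnmt3b, the de novo DNA methyltransferase of the primed epiblast, was detected in each of the 191 wells. It had 2602, 2234, 2703, 2233, 2255 and 2447 CPM in single and 2674, 2676, 3255, 3287, 2580 and 2787 CPM in double sums of embryos 2, 3, 4, 6, 7 and 9. The double sum was higher in each embryo, the groups overlapped in range, and the log2 fold change of the sums was 0.25 (SE 0.07, adjusted p 0.995, edgeR). Pou5f1, the core pluripotency factor, had 1700 ± 241 CPM in single and 1719 ± 254 in double sums.

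By a rank distance at equal depth, double wells also lay closer to one another than single wells did. The distance between wells of an embryo was taken as the square root of (1 - r) / 2 over the 500 most variable genes at equal depth, with r Spearman's correlation. The median distance was 0.418, 0.410, 0.411, 0.368, 0.439 and 0.436 between double wells of embryos 2, 3, 4, 6, 7 and 9, and 0.450, 0.460, 0.432, 0.453, 0.466 and 0.462 between single wells. It was lower in 6 of 6 embryos, with a mean difference of -0.0404 ± 0.0240 (SD, exact paired permutation p = 0.03125, adjusted 0.0625). Gene by gene, the variance between wells of log2(CPM + 1) on thinned counts was 0.831 ± 0.105 of that in single wells over the genes of at least 1 CPM. The ratio was 0.510 ± 0.208 at 100 to 300 CPM, 0.716 ± 0.148 at 30 to 100 CPM and 1.11 ± 0.12 at 1 to 3 CPM. It was 0.559 ± 0.202 for the G1/S list, 0.654 ± 0.211 for the mitotic list, 0.781 ± 0.184 for the actin list and 0.838 ± 0.107 for cell-cell junctions. The ratio was under 1 in 6 of 6 embryos for the first, second and last of these lists and in 5 of 6 for the actin list.

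Phase calls by cyclone, which reads pairs of genes, placed 0 of 66 double wells in G2M. Of the single wells, 6 were placed in G2M, in embryos 2, 6, 7 and 9, and the others in G1 or S. The share of wells in S was higher in double wells of 5 embryos, by 6.81 to 49.1 percentage points, and lower in embryo 7, where 0 of 4 double and 16 of 41 single wells were placed in S. The mean difference was 11.3 ± 29.1 points (SD, n = 6, exact paired permutation p = 0.406, adjusted 0.542), and it was 3.77 points without embryo 6 and 21.4 without embryo 7. For G2M it was -4.14 ± 3.31 points (exact p = 0.125, adjusted 0.2). A count of 0 among 66 double wells allows a share of up to 4.55%, a limit for counting error only that takes the wells as independent although wells of an embryo share their source. Ccnb1 was found in at least 97.9% of the wells of either type at equal depth, beside this small number of G2M calls. A phase call on a well with a pair of cells reads both cells together. An S call is given where the G1 and G2M scores are both low. In embryo 6 the median G1 and G2M scores were 0.133 and 0.062 in double wells and 0.747 and 0.002 in single wells. Whether S calls of double wells mark S phase was not tested. The share of counts in the 50 most abundant genes was 17.9% ± 1.0 in double and 18.01% ± 1.24 in single wells (exact p = 0.625, adjusted 0.625).

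**Figure D5:**
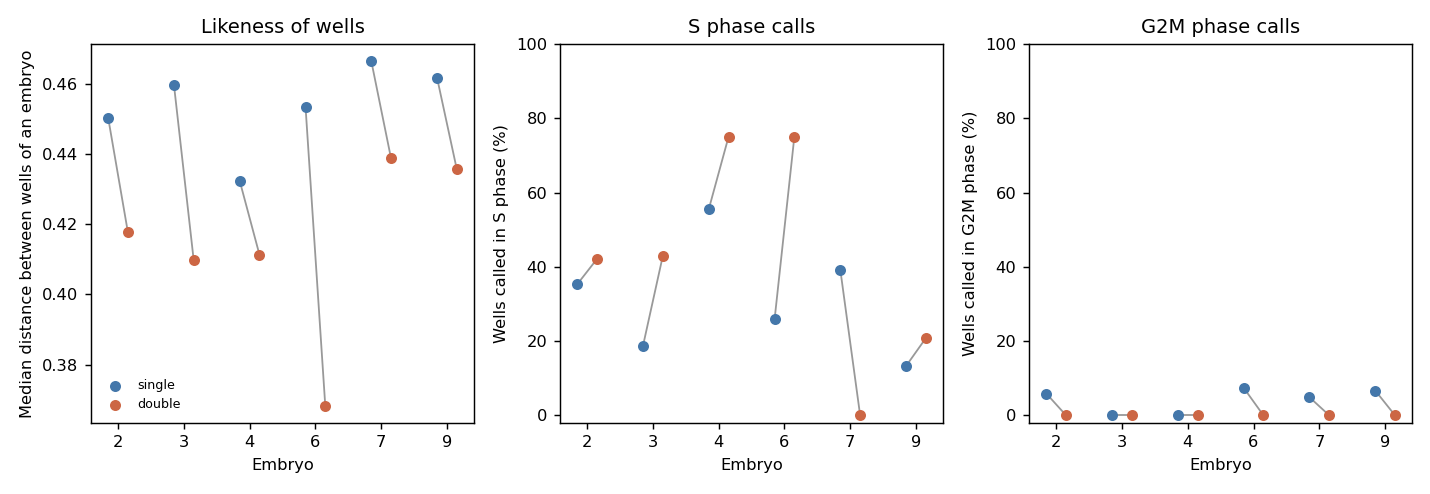
Median distance between wells of the same type in an embryo (left, axis not from 0), and shares of wells called in S (middle) and G2M (right) by cyclone, for single (blue) and double (orange) wells joined by embryo. The distance is lower in double wells of 6 of 6 embryos, the S share is higher in 5 of 6, and the G2M share is 0 in double wells of each embryo.

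Markers placed nearly all wells of both types in the epiblast. The 16 epiblast genes summed to a median of 6180 CPM in double and 5831 CPM in single wells, and each of the 16 had counts in both. The 25 visceral endoderm genes summed to medians of 649 and 561 CPM, of which 23 had counts in double and 24 in single wells. In 2 wells the mean endoderm level exceeded the epiblast level, a double well of embryo 2 with 28470 CPM and a single well of embryo 6 with 25909 CPM of endoderm genes, while no other well exceeded 1850 CPM. The double well of embryo 2 had 5285 CPM of the apolipoprotein Apoa1 and 2891 CPM of Ttr, together with 100 CPM of Pou5f1 against a median of 1590 CPM in the other double wells of that embryo. In the single well of embryo 6 Pou5f1 had 0.858 CPM. Without these 2 wells edgeR again called 0 genes. Trophoblast genes summed to medians of 71.9 CPM in double and 81.2 CPM in single wells, with Hand1 at 0 in both, Elf5 at 0 in single and Wnt7b and Esrrb at 0 in double wells.

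Genes of the maternal decidua and blood were low, with medians of 10.1 CPM in double and 0 CPM in single wells (highest 126.1 and 294 CPM). Of the 10 genes, 6 had counts in each type, and Ptprc, Lum and Prl8a2 were at 0 in both. Col1a2, which encodes a chain of collagen I made by stromal cells, was found in 14 of 66 double wells (21.2%) and 6 single wells (4.8%), and the share of wells at equal depth was higher in double wells of 6 of 6 embryos. Its sums were 8.80, 7.63, 3.97, 17.9, 2.83 and 2.56 CPM in double and 0.119, 0, 0, 0.321, 1.89 and 0 CPM in single wells. The double sums did not overlap the single sums, and the adjusted p was 0.995 by edgeR and 0.00331 by DESeq2. No fold is given, since 3 single sums held 0 counts. Col1a1, the partner chain of collagen I, had counts in 1 double and 2 single wells, and Col3a1 in 0 and 1. For the other tested decidual genes, Dcn and Cd68, the sums overlapped, with 13.9 ± 7.9 and 5.20 ± 4.11 CPM in double and 19.7 ± 18.5 and 4.88 ± 5.78 CPM in single sums. With wells pooled over embryos, their share was higher in double wells, at 42.4% and 29.6% for Dcn and 34.8% and 15.2% for Cd68. At equal depth the 3 genes were found on average in 25.05% ± 7.53 of double and 13.3% ± 3.7 of single wells, higher in 6 of 6 embryos. Detection at equal depth also rose in double wells for genes in general. The mean rise was 12.2 percentage points at 10 to 30 CPM and 5.39 at 3 to 10 CPM, in 6 of 6 embryos for both. The decidual genes were not set beside genes at the same level, and the part of maternal cells in the result was not tested.

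The stress lists showed 0 called genes as well. The median log2 fold change was -0.11 over 16 immediate early and heat shock genes and -0.16 over 13 targets of p53. Ier2, which responds within minutes to handling, had 244 ± 69 CPM in single and 215 ± 54 in double sums, the chaperone Hsp90aa1 5741 ± 450 and 5546 ± 359, and the death effector Bax 913 ± 158.5 and 815 ± 144.85.

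At E4.5, 38 double wells and 67 single wells of 5 embryos gave the same contrast, in wells whose titles do not separate epiblast from primitive endoderm. There edgeR called 0 of 10400 genes (0%), with 357 genes at an unadjusted p under 0.05, of which 199 were higher in double wells. Genes at equal depth were higher in double wells of 4 of 5 embryos, by 561 ± 372 on average (SD, range -26.5 to 893.5, exact paired permutation p = 0.125, adjusted 0.312). The difference between stages in this measure was 512 genes (exact permutation p = 0.0996, adjusted over 5 measures 0.166). Total counts differed between stages, with double minus single at 34134 ± 128242 counts at E4.5 and -165591 ± 105251 at E5.5 (exact permutation p = 0.00649, adjusted 0.0325). The stages also differed in the preparation of the cells and, for most wells, in plate label, so that stage cannot be told apart from these. Median distances were lower in double wells of 4 of 5 embryos at E4.5, and their mean difference was -0.0623 ± 0.1422. The interaction of well type and stage called 3 of 12502 genes (0.024%, edgeR), Tfec, Enpp2 and Tcl1, in each of which the sums of a well type at one stage held 0 counts in most embryos, and 0 to 3 genes were called when 1 embryo was left out.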

How the data were processed

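The deposited table holds counts per gene and well, made by the authors from paired reads that were trimmed and aligned to GRCm38; SeqMonk counted the primary alignments per gene, with MAPQ 20 as the minimum. The submitters' processing notes name Trim Galore 0.4.3 and HISAT2 2.0.5, while the study's methods name other versions of both. The authors had left out wells with under 4000 genes or over 10% mitochondrial reads, trophoblast cells, and wells with no cell or more than a pair. The reads carry no molecular identifiers, so amplified copies count as reads and limits set by counting cover counting error only. The table has 24483 genes and 721 wells, 0 columns belong to other series, and 0 pairs of E5.5 wells were identical. Wells took their stage, plate label, embryo and type from their titles. The members, gene lists and tests were chosen with earlier results of these data known.

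Counts were summed by embryo and well type where at least 3 wells of both types existed, filtered with filterByExpr, normalised by TMM and tested with edgeR 4.0.16 (R 4.3.3), with embryo as a block and Benjamini-Hochberg adjustment; genes were called at an adjusted p of 0.05. The embryo pairs the sums because both come from the same animal, and same-embryo deviations correlated at 0.0965 to 0.319 over 4597 genes, higher than with any other embryo. DESeq2 1.42.0, whose adjusted p was NA for 2958 genes, and limma 3.58.1 on means of log2(CPM + 1), with a pseudocount of 1, were alternatives. Values per well were medians per embryo, compared by exact two-sided sign changes of the 6 differences. Wells were thinned to 100000 counts with a fixed seed. Phases came from cyclone in scran 1.30.0. The scripts were tested on simulated data. Named genes were Depdc1a, Lrrcc1 and Cnn2, called list members, the 10 genes of smallest p with 1 direction in every embryo (used because fewer than 5 were called), and the 3 most abundant of each list. Genes named for an unadjusted p, for the share of wells or for the limma fit were chosen after their values were seen. p-values measure how the double minus single difference varies between these embryos, which includes the sampling of few wells in some. Each embryo carries 1 plate label, and some labels name several plates, so that well type was compared within a label only and single plates were not separated.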

Additional observations from a re-analysis of the deposited data

Results flagged for a closer look

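Among the groups of 6 embryo values examined, 9 (6.82% of the groups) held an embryo far from the others by Dixon's test, close to the 1 in 20 that chance gives. The difference in median total counts, double minus single, was lowest in embryo 6 at -371920.5. The share of counts in the 50 most abundant genes was highest in the double wells of embryo 4, at 19.8%. In single sums, Cyb5 was highest in embryo 3 (668 CPM), Col1a2 in embryo 7 (1.89 CPM), and Dcn, a proteoglycan of connective tissue, in embryo 4 (57.2 CPM). Uhrf1 was lowest in the single sum of embryo 7, at 226 CPM. Apoa1, an apolipoprotein of the endoderm, was highest in the single sum of embryo 6 (400.6 CPM), which includes the endoderm-like single well with 7169 CPM. In double sums, the endocytic receptor Lrp2 was lowest in embryo 7 (22.3 CPM) and the p53 target Phlda3 highest in embryo 3 (276 CPM).

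Between stages, the double minus single difference in total counts, E5.5 minus E4.5, was -199725 counts (exact permutation p = 0.00649, adjusted 0.0325). Preparation of the cells and, for most wells, plate label differed between the stages as well. By edgeR's interaction test 3 genes differed in the contrast between stages. For Tfec, a transcription factor, the log2 difference was 5.51 (adjusted p 0.0394). It had 0 counts in all 6 single sums of E5.5, and 21 and 22 counts in the double sums of embryos 2 and 3, with 0 in the other 4. For Tcl1, a co-activator of AKT, it was 5.81 (adjusted p 0.0455). Its E5.5 single sums were also all at 0, and the double sums of embryos 2, 4 and 9 held 45, 4 and 51 counts. For Enpp2, which makes lysophosphatidic acid, it was 7.08 (adjusted p 0.0394), with 0, 0, 0, 1 and 0 counts in the double sums of E4.5 and 49, 7, 0, 36 and 252 in the single sums. With groups at 0 these fitted differences depend on the prior count and are no measure of size.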

How the results depend on the processing

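At E5.5 edgeR called 0 genes under every alternative run with it: no replicate block (320 genes at an unadjusted p under 0.05, against 432 with the block), no low-count filter, RLE normalization, a null of 1 in log2 fold change, equal numbers of wells, equal totals, thinned wells, at least 1 or 5 wells of both types, the wells with plate label P7.P4.P5 alone (smallest adjusted p 0.269), and each embryo left out. At E4.5 the count without the replicate block was also 0. DESeq2 called 2 genes, limma on means per well 283, and limma on thinned wells, chosen after seeing the data, 49. The interaction with stage called 5 genes with no filter on low counts and 0 to 3 without each embryo; it reached 0 without any of E4.5 embryos 1, 2, 3 and 5 and E5.5 embryos 3, 4 and 9.

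Without each embryo in turn, the mean double minus single difference was 942.9 to 1213 genes at equal depth, 1216 to 1502 genes at full depth, -181295 to -124325 total counts, and -0.0442 to -0.0314 in distance. It was 3.77 (without embryo 6) to 21.4 (without embryo 7) percentage points for wells in S, -17.4 to -0.282 for G1 and -4.97 to -3.49 for G2M. For the share of the 50 most abundant genes it was -0.320 to 0.0431 percentage points, turning to 0.0431 without embryo 3. With 5 embryos the exact test cannot go below 0.0625. At 300000 counts distances could be had in 5 embryos and were lower in double wells in 5. Of 752 values of named genes under alternatives, 96 had the other sign with neither value called. Leaving out the high double well of embryo 9 moved Lrrcc1 from -0.03 to -0.47 and Cnn2 from 1.28 to 0.28. The cell numbers in the titles, the depth of the double wells and the small number of double wells in embryos 6 and 7 (4 each) limit these comparisons.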
